A study of Homo sapiens with 4 samples.

Results

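The genes of the translation initiation factors were followed in RCM‐1 cells during treatment with methylthioacetic acid (MTA). They were chosen by name and not by their values. All probe sets were taken whose only gene symbol starts with EIF1, EIF2, EIF3, EIF4 or EIF5, and a Y‐linked gene and pseudogenes were left out. This gave 47 protein‐coding genes of 19775 genes on the array, with 122 of 54613 probe sets. Of these genes, 46 had a brightest probe set that passed the filter on dim probe sets, as did 10505 of all genes. EIF4A2 was the gene that did not, with signals of 16.5, 22.8, 26.6 and 18.3 at 0, 6, 12 and 18 h, and it was left out of every count of ratios. EIF4A1, EIF4G3, EIF4EBP3 and EIF3CL had no probe set with 1 symbol, so they were not analysed here and enter no count. The 4 noncoding RNAs with matching names (EIF1B‐AS1, EIF2AK3‐AS1, EIF2AK3‐DT and EIF3J‐DT) were set apart, and of their 6 probe sets that of EIF3J‐DT alone passed the filter.

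RCM‐1 cells are a line of well‐differentiated rectal adenocarcinoma cells, which form domes, fluid‐filled blisters of the cell sheet, when they differentiate in culture. Near confluency the cells were exposed to MTA (1 mM) during 6, 12 or 18 h, after which vehicle medium (0.1% acetonitrile) replaced it until 24 h, so that they had been 18, 12 or 6 h without MTA. The 0 h cells were the vehicle control without MTA, and whether they too were kept until 24 h is not stated outright. Each time had 1 array, so no test was made, no p‐value is given, precision is limited by the number of arrays, and the hours in MTA and the hours after its removal cannot be told apart. Every ratio below has the same 0 h array as its denominator. In bulk RNA, fewer cells of a kind and less RNA per cell cannot be told apart as the source of a lower signal.

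Initiation factors bring the initiator transfer RNA, the messenger RNA and the small ribosomal subunit together and place the ribosome at the start codon. The GTPase eIF2 carries the initiator transfer RNA, eIF2B recharges eIF2 with GTP, eIF3 is the large scaffold on the small subunit, and eIF4F binds the cap of the messenger RNA. In growing cells, colorectal cancer cells among them, eIF2 with its exchange factor and eIF4E with its binding proteins are the main points at which signals set the rate of initiation.

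The cells had the signals of their label. All 8 epithelial markers looked for, among them EPCAM, KRT20 and VIL1, passed the filter, and of 7 measured markers of stromal, endothelial and immune cells only PECAM1 did. The summed signal of those 7 was 81.0, 98.8, 81.1 and 64.0 at 0, 6, 12 and 18 h, against 56040, 55379, 47111 and 39623 for the 8 epithelial markers. The log2 ratio to 0 h of all 10505 genes had a median of 0.11, −0.28 and −0.47 at 6, 12 and 18 h. Controls added to the RNA before labelling (poly‐A controls, 12 probe sets) had a mean log2 ratio of 0.20, 0.03 and −0.25 at these times, and controls added at hybridization (9 probe sets) 0.02, −0.27 and −0.05. The ratios below keep the deposited scaling, and the effect of scaling to either set of controls is given at the end. Why the controls differed between arrays was not tested. For this reason each group of factors is also given as a shift, its median log2 ratio minus that of all genes, which a factor that scales a whole array cannot move.

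The initiation factor genes had lower signals than the control after 12 and 18 h of MTA, and somewhat lower ratios than other genes at every time. The 46 genes had median log2 ratios of −0.05, −0.52 and −0.69 at 6, 12 and 18 h, which is a shift of −0.16, −0.24 and −0.22 from all genes. At 18 h 44 genes lay below 0, and the exceptions were EIF4EBP2 and EIF5A2. Most genes on the arrays lay below 0 too, and 2284 of all 10505 lay above it. With ratios centred on their median, quantile normalization or division by the trimmed mean 36, 32 and 33 members lay below 0. The median of all genes at 18 h was then −0.02, 0.01 and 0.05, so the sign of members near that median depends on the scaling. At that time 35 genes (76.1%) lay below the median of all genes, as 50% of all genes do. All members but EIF4E3 (97.8%) had a lower ratio at 12 h than at 6 h, as did 88.6% of all genes, and 39 (84.8%) had a lower one at 18 h than at 12 h, as did 76.3%. Most genes on the arrays thus had this course, and the exception of EIF4E3 at 12 h rests on its brightest probe set. In 31 members (67.4%) the shift was below 0 at all 3 times, as in 34.8% of all genes. In 4 members (8.70%), EIF2AK1, EIF4E3, EIF4EBP2 and EIF5A2, it was above 0 at all 3, as in 34.6% of all genes.

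A log2 ratio below −1, more than a 2‐fold lower signal, was found in 0, 3 and 10 members at 6, 12 and 18 h. Of all genes, 0.476%, 6.29% and 15.8% had one, against 21.7% of the members at 18 h. The 10 genes at 18 h were EIF1AD, EIF2B1, EIF2B2, EIF2B3, EIF2B4, EIF2S1, EIF3B, EIF3C, EIF3J and EIF4A3. EIF3B lay just inside this limit (−1.004), and EIF3G and EIF2B5 lay just outside (both −0.99). None of the members passed −1.5, the threshold of the study's methods, at 18 h, where 3.19% of all genes did. At 12 h EIF2B3 alone passed it, as did 0.942% of all genes. A log2 ratio above 1 was found in EIF5A2 at 6 h (4.68% of all genes) and in no member at 12 or 18 h (3.28% and 3.15%). The count below −1 at 18 h rested on the scaling of the arrays: with ratios centred on their median it was 1 (2.17% of members, 3.74% of all genes), and with each array divided by its trimmed mean it was 0 (3.08% of all genes).

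**Figure D1:**
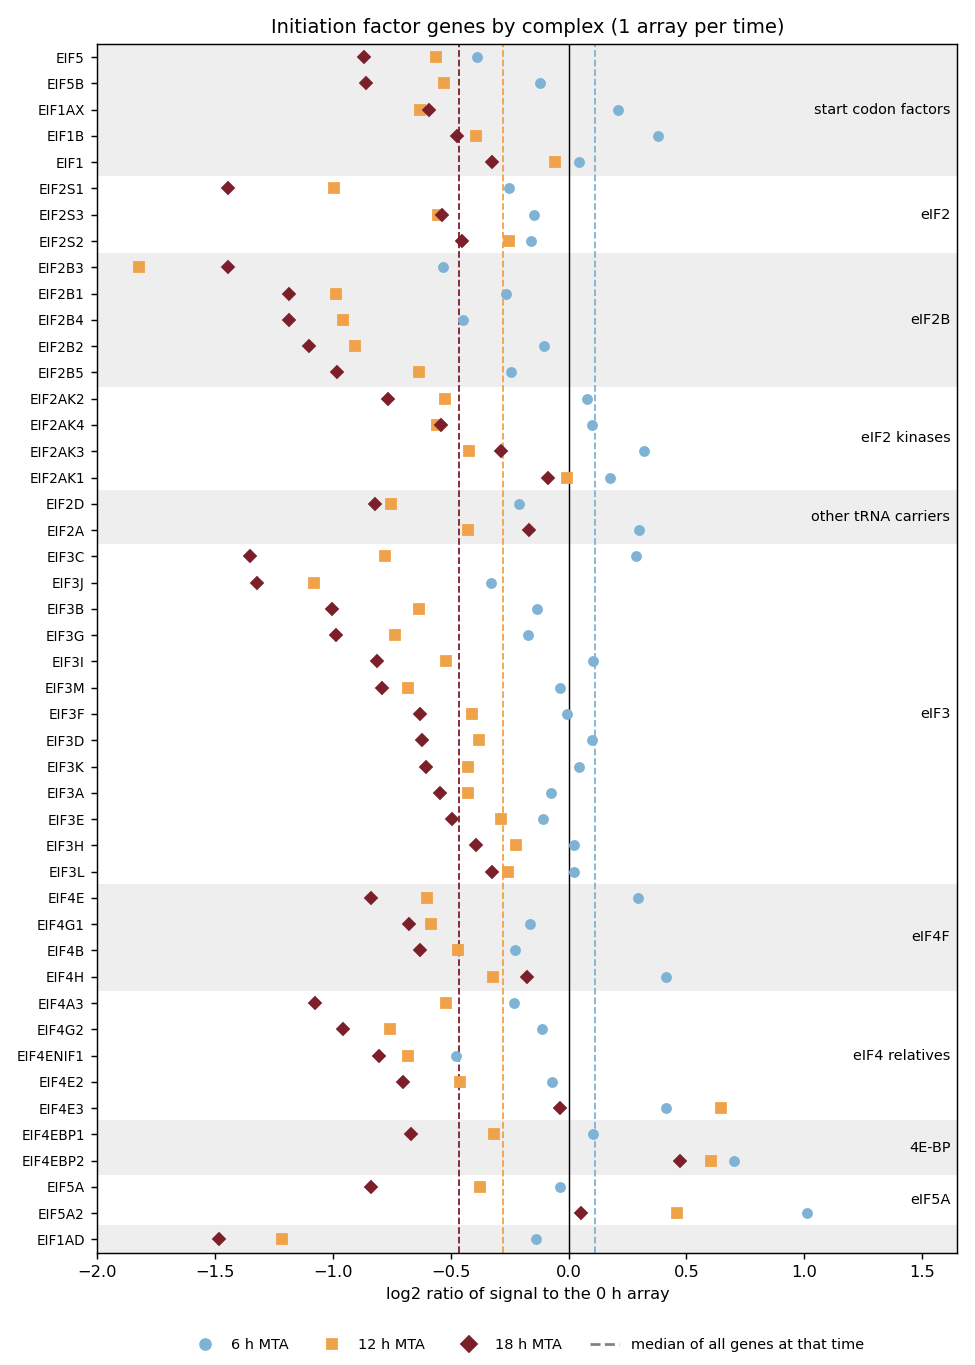
Log2 ratio of signal to the 0 h array (horizontal axis) for each of the 46 initiation factor genes, grouped by complex, with a circle for 6 h, a square for 12 h and a diamond for 18 h of MTA (1 array each) and dashed lines at the median of all genes at each time. All 5 eIF2B genes lie left of the dashed line at each time, whereas EIF4EBP2 and EIF5A2 are the only genes right of 0 at 18 h.

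Promoters are shown for 4 members that each hold at least 1 of the motifs looked for. EIF2B3, EIF4A3 and EIF2B1 had a log2 ratio below −1 at 18 h, and EIF5A2 had one above 1 at 6 h. They do not stand for all members below −1, of which EIF2S1 and EIF3J, among others, held neither motif. The sequences are the 250 bases before the gene start, from RefSeq (GRCh38.p14), 5′ to 3′ on the strand of the gene. Capitals mark CACGTG, the E‐box that MYC and USF proteins bind (EIF2B3, EIF4A3 and EIF5A2), or CCGGAA, the core of sites of ETS factors (EIF2B1). Both motifs were searched on both strands and cannot overlap each other; only the marked motif of each line is capitalised.
EIF2B3, chr1:44986596-44986845, minus strand: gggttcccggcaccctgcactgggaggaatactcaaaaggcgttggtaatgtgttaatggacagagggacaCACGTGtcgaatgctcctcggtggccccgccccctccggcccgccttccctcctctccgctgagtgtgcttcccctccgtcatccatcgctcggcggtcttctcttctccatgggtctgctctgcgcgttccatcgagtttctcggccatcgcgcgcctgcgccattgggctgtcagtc
EIF4A3, chr17:80147129-80147378, minus strand: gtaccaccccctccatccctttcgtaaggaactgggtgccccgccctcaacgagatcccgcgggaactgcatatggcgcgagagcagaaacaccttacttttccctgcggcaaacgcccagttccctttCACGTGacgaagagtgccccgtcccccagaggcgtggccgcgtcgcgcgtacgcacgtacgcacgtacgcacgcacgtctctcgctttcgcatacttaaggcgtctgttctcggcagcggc
EIF2B1, chr12:123633687-123633936, minus strand: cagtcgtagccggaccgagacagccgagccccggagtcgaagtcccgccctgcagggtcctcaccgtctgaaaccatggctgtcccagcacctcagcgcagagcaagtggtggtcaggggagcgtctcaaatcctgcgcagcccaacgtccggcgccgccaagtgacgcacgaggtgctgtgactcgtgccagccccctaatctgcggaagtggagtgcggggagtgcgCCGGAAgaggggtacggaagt
EIF5A2, chr3:170908638-170908887, minus strand: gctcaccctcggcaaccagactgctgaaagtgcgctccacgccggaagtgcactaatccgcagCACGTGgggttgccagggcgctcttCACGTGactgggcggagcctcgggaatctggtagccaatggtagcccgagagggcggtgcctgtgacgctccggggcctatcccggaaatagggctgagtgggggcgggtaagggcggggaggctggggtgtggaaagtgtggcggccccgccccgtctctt
The E‐box starts 179 bases before the gene start in EIF2B3, 121 bases in EIF4A3 and 187 and 162 bases in EIF5A2, and the ETS core starts 21 bases before that of EIF2B1.

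Of the 47 members 39 had a promoter in the table, and 11 of these held CACGTG (EIF1B, EIF2AK2, EIF2B3, EIF3F, EIF3K, EIF4A3, EIF4B, EIF4E, EIF4G1, EIF4H and EIF5A2). The motif was in 6.34% of all 35116 promoters of this length and in 11.6% of the 8687 genes that passed the signal filter. CCGGAA was in 14 of the 39 members, EIF4A2 among them, in 14.5% of all promoters and in 31.6% of the genes that passed the filter. Of the 10 members with a log2 ratio below −1 at 18 h, 2 held the E‐box and 2 the ETS core (EIF1AD and EIF2B1). The E‐box was thus present in EIF4H, EIF1B and EIF5A2, whose ratios at 18 h were −0.18, −0.47 and 0.05, as well as in EIF2B3 at −1.45. These are matches of letters and say nothing of whether a factor binds there.

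The complex with the lowest ratios was eIF2B, the guanine nucleotide exchange factor of eIF2. Its 5 genes had a median log2 ratio of −1.19 at 18 h, a shift of −0.72, and 4 of the 5 lay below −1. The shift was already −0.38 at 6 h and was −0.68 at 12 h. Without eIF2B, 6 of the other 41 members (14.6%) lay below −1 at 18 h, close to the 15.8% of all genes, and their median was −0.63. EIF2B1, the alpha subunit, had signals of 1223, 1017, 617 and 537 at 0, 6, 12 and 18 h, so that 43.9% of the control signal was left at 18 h (log2 ratio −1.19). EIF2B2, the beta subunit, had 569, 529, 303 and 265 (−1.10). EIF2B4, the delta subunit, had 609, 446, 314 and 268 (−1.19), and its other kept probe set had −1.002. These are the regulatory subunits, which sense the phosphorylation of eIF2, and in each of them the control had the highest signal and 18 h the lowest.

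The catalytic part of eIF2B consists of EIF2B3 and EIF2B5, the gamma and epsilon subunits. EIF2B3 had signals of 248, 171, 70.0 and 91.0, with log2 ratios of −0.53, −1.82 and −1.45 at 6, 12 and 18 h. It was the lowest member at 6 h and at 12 h, and its 12 h signal was its lowest. EIF2B5, which carries the exchange activity, had 450, 381, 290 and 228 (−0.99 at 18 h), a nearly 2‐fold lower signal than the control. EIF2B1, EIF2B2 and EIF2B3 each had 1 probe set, so no other reading of these transcripts was at hand.

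**Figure D2:**
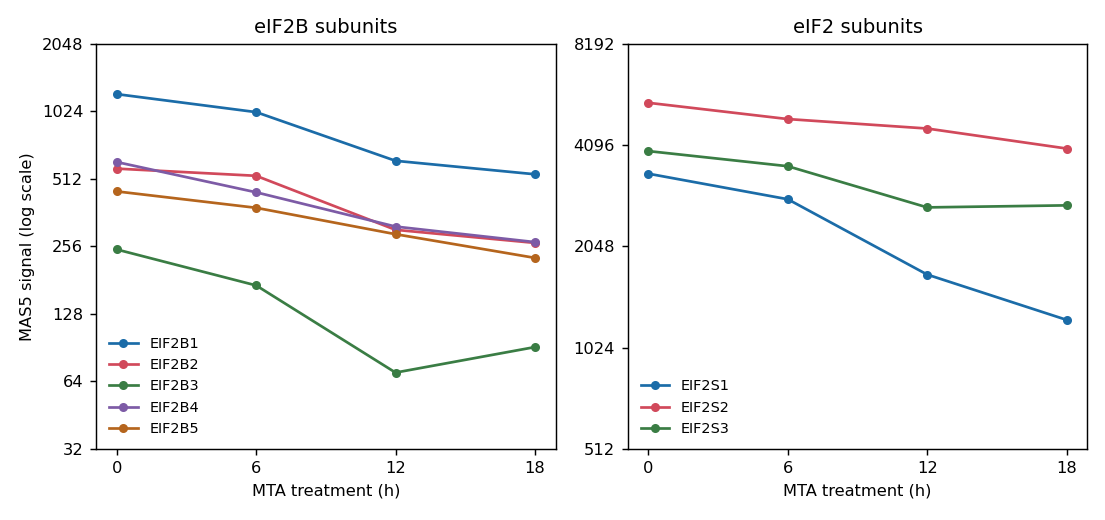
MAS5 signal on a log axis against the hours of MTA treatment for the 5 eIF2B genes (left) and the 3 eIF2 genes (right), 1 probe set per gene and 1 array per time. Within eIF2, EIF2S1 had 1238 at 18 h against 3369 at 0 h, while EIF2S2 and EIF2S3 had a smaller difference. The height of a line depends on its probe set and does not compare one gene with another.

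In eIF2 itself the ratios of the 3 subunits were not alike. EIF2S1, the alpha subunit on which the stress kinases act, had signals of 3369, 2828, 1689 and 1238 at 0, 6, 12 and 18 h (log2 ratio −1.44 at 18 h), lower at each later time, and its other 2 kept probe sets lay at −1.43 and −1.15. EIF2S2, the beta subunit, had 5475, 4898, 4591 and 4003 (−0.45). EIF2S3, the gamma subunit that binds GTP and the transfer RNA, had 3933, 3546, 2675 and 2712 (−0.54), with its 12 h and 18 h signals almost equal. Its other 2 kept probe sets were lower at 18 h than at 12 h (1311 after 1572, and 238 after 268). They had log2 ratios of 0.14 and 0.26 at 6 h and −0.36 and −0.34 at 18 h. As differences that a factor applied to a whole array cannot change, the ratio of EIF2S1 minus that of EIF2S2 was −0.09, −0.74 and −0.99 at 6, 12 and 18 h, and minus that of EIF2S3 it was −0.10, −0.44 and −0.91. A dim second probe set of EIF2S2 (63.6 at 0 h) had −1.33 at 18 h, so that for EIF2S2 the difference rests on its brightest probe set.

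The 4 kinases that phosphorylate eIF2 had a median of −0.41 at 18 h, a shift of 0.05, and none lay below −1. The single kinases were not alike, with shifts between −0.30 (EIF2AK2) and 0.38 (EIF2AK1) at that time. EIF2AK1 (HRI, activated when haem is low) had signals of 985, 1113, 979 and 927 and a log2 ratio of −0.09 at 18 h, the highest of them. EIF2AK2 (PKR, activated by double‐stranded RNA) had 682, 721, 474 and 401 (−0.77), the lowest. EIF2AK3 (PERK, the kinase of endoplasmic reticulum stress) had −0.29 and EIF2AK4 (GCN2, activated by uncharged transfer RNA) had −0.54. EIF2AK2 minus EIF2AK1 was −0.68 at 18 h. Of the proteins that can bring a transfer RNA without eIF2, EIF2A had signals of 3216, 3958, 2394 and 2862 (−0.17 at 18 h) and EIF2D had 502, 434, 298 and 284 (−0.82). EIF2A was higher at 18 h than at 12 h, and EIF2D was lowest at 18 h.

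The factors that select the start codon had a median of −0.59 at 18 h, a shift of −0.13, and none lay below −1. EIF1, which keeps the scanning ribosome from starting at wrong codons, had signals of 11268, 11611, 10809 and 8991, and its log2 ratio of −0.33 was the highest of this group. Over its 6 kept probe sets the ratio of EIF1 ranged between −0.54 and 0.17, so this rank depends on the probe set. Its paralogue EIF1B had 1739, 2262, 1324 and 1253 (−0.47), and EIF1B minus EIF1 was 0.34, −0.33 and −0.15 at 6, 12 and 18 h. EIF5, the activator of the GTPase of eIF2, had 4194, 3205, 2838 and 2295 and the lowest ratio, −0.87. EIF5B, which joins the large subunit, had −0.86, and its 6 kept probe sets ranged between −1.41 and −0.85. EIF1AX, which helps scanning, had −0.59. EIF1AD carries a domain like that of eIF1A and was set apart from these factors. It had 527, 478, 226 and 188, and its log2 ratio of −1.48 was the lowest of all 46 members at 18 h, with −1.22 at its other probe set.

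The 13 measured subunits of eIF3 had a median of −0.63 at 18 h, a shift of −0.16. Of them 11 lay below the median of all genes, and 3 (23.1%) lay below −1, as did 15.8% of all genes. The loosely bound subunit EIF3J stood apart, with signals of 2360, 1878, 1114 and 943 at 0, 6, 12 and 18 h and a log2 ratio of −1.32, and −1.37 at its second probe set. EIF3L, a peripheral subunit, was the highest, with 4692, 4761, 3923 and 3740 (−0.33). EIF3J minus EIF3L was −0.35, −0.82 and −0.996 at 6, 12 and 18 h. The divergent noncoding RNA beside EIF3J, EIF3J‐DT, had 96.9, 122, 88.4 and 88.5 (−0.13 at 18 h), which does not share the low ratio of EIF3J.

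EIF3B, a core subunit, had signals of 3146, 2863, 2026 and 1569, with 49.9% of the control signal left at 18 h. Its 5 kept probe sets ranged between −1.04 and −0.03, and the brighter ones are of the kind that Affymetrix marks as open to binding of other transcripts. EIF3G and EIF3I, which form a module with EIF3B, had −0.99 and −0.81. In rising order, EIF3M, EIF3F, EIF3D, EIF3K, EIF3A, EIF3E and EIF3H lay between −0.79 and −0.39. Of these EIF3A is a scaffold of the complex and EIF3D can bind the cap of some messenger RNAs. EIF3C was read by a dim probe set alone, with signals of 87.2, 106, 50.8 and 34.2 (−1.35). The 3 probe sets that list EIF3C together with its near‐identical copy EIF3CL had signals of 3253 to 4388 at 0 h and log2 ratios between −0.62 and −0.49 at 18 h. The low ratio of EIF3C was thus not seen at them. Without EIF3C the count below −1 in eIF3 was 2 of 12 (16.7%), near the 15.8% of all genes, with the same median of −0.63.

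The cap‐binding complex eIF4F with its helper proteins had a median of −0.65 at 18 h over 4 genes, a shift of −0.19, and none below −1. EIF4E, which binds the cap, had signals of 963, 1182, 634 and 538 (−0.84), and by this probe set was above the control at 6 h alone. Its 3 kept probe sets ranged between −0.32 and 0.30 at 6 h and between −1.30 and −0.61 at 18 h. EIF4H, which assists the helicase eIF4A, had 1407, 1872, 1125 and 1243 (−0.18), the highest ratio of the 4. The scaffold EIF4G1 had 1043, 931, 696 and 653 (−0.68), but its second probe set had −1.33. EIF4B, the other helper of the helicase, had −0.63. Of the proteins related to eIF4 subunits, EIF4A3, a helicase of the exon junction complex, had 2123, 1809, 1481 and 1007 and the lowest ratio, −1.08. EIF4G2, which resembles EIF4G1 without the part that binds eIF4E, had −0.96, and EIF4ENIF1, which carries eIF4E into the nucleus, had −0.81.

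Pairs of paralogues were compared within the same arrays in the eIF5A, 4E‐BP, eIF4E and eIF1 families alone, chosen with earlier results known. Among these pairs, the larger differences at 18 h were EIF4EBP2 minus EIF4EBP1, EIF5A2 minus EIF5A and EIF4E3 minus EIF4E. Not every pair differed: at 18 h EIF4E2 minus EIF4E (0.14) and EIF1B minus EIF1 (−0.15) were small. Both were smaller than the median difference between probe sets of a gene (0.246). EIF5A2 had signals of 143, 287, 196 and 148 at 0, 6, 12 and 18 h. Its log2 ratio of 1.01 at 6 h was the only one above 1 among the members, and at 18 h it was 0.05. The 6 h value was just past 1 and lay below it with each of the other scalings of the arrays (0.81 to 0.99). The 3 kept probe sets of EIF5A2 lay between 0.85 and 1.27 at 6 h and between −0.16 and 0.53 at 18 h. EIF5A, the widely expressed form of this hypusine‐bearing factor, had 2002, 1952, 1541 and 1118 (−0.84 at 18 h), with −0.84 to −0.80 over its 3 probe sets. EIF5A2 minus EIF5A was 1.05, 0.84 and 0.89 at 6, 12 and 18 h.

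The 4E‐BP proteins hold eIF4E away from eIF4G until they are phosphorylated by mTOR. EIF4EBP2 had signals of 568, 924, 864 and 790 (log2 ratios 0.70, 0.60 and 0.47), above the control at every time, and EIF4EBP1 had 626, 671, 503 and 393 (−0.67 at 18 h). EIF4EBP2 minus EIF4EBP1 was 0.60, 0.92 and 1.14 at 6, 12 and 18 h. The 4 kept probe sets of EIF4EBP2 ranged between −0.43 and 0.70 at 6 h, −0.58 and 0.60 at 12 h and −0.43 and 0.47 at 18 h. The second brightest had 0.39, −0.08 and −0.15. A signal above the control was thus not common to them at any time. The size of the difference from EIF4EBP1 rests on the brightest probe set. Of the eIF4E family, EIF4E3 had 104, 138, 163 and 101 (−0.04 at 18 h) and was highest at 12 h. Its second probe set had 91.8, 136, 117 and 97.4 and was highest at 6 h. The 12 h peak of EIF4E3 thus rests on its brightest probe set, which is dim. EIF4E2, a cap‐binding repressor, had 691, 658, 502 and 424 (−0.70), and its second probe set had −1.13. EIF4E3 minus EIF4E was 0.11, 1.25 and 0.80 at 6, 12 and 18 h, and EIF4E2 minus EIF4E was −0.37, 0.14 and 0.14.

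**Figure D3:**
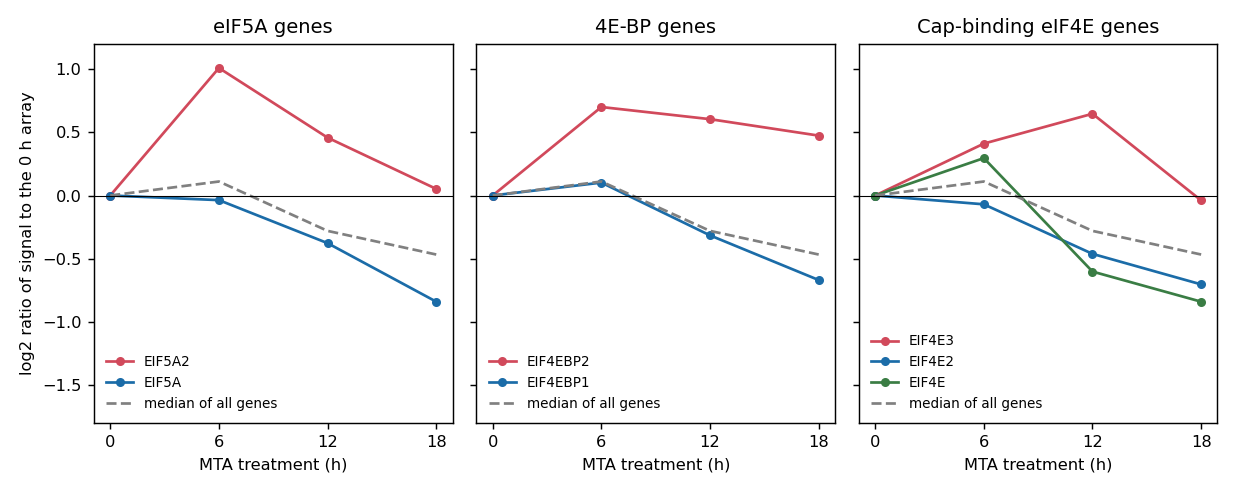
Log2 ratio of signal to the 0 h array against hours of MTA treatment for the paralogues of eIF5A, the 4E‐BPs and the cap‐binding eIF4E proteins, by the brightest probe set of each gene and 1 array per time, with the median of all genes dashed. EIF5A2, EIF4EBP2 and EIF4E3 lie above that median at 6, 12 and 18 h, and EIF5A reaches −0.84 at 18 h.

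The only measure of error in these data is the difference between probe sets of a gene on the same arrays, which does not contain the variation between cultures. At 18 h it had an SD of 0.479 over 4676 genes and of 0.310 over the 27 members with a second kept probe set. The median absolute difference was 0.246 over those genes and 0.164 over the members. Of the 10 members below −1, 5 had a second probe set, and all 5 of these lay below −1 too. Of the members that did not, EIF2S2, EIF4E2 and EIF4G1 had a second probe set that did. Dimmer kept probe sets of EIF5B (lowest −1.41), EIF4E (−1.30), EIF5 (−1.20) and EIF3M (−1.18) lay below −1 too. In the other direction, EIF3B had a dimmer kept probe set at −0.03. The difference between probe sets is a spread of single genes, so it gives no error for the median of a complex.

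**Figure D4:**
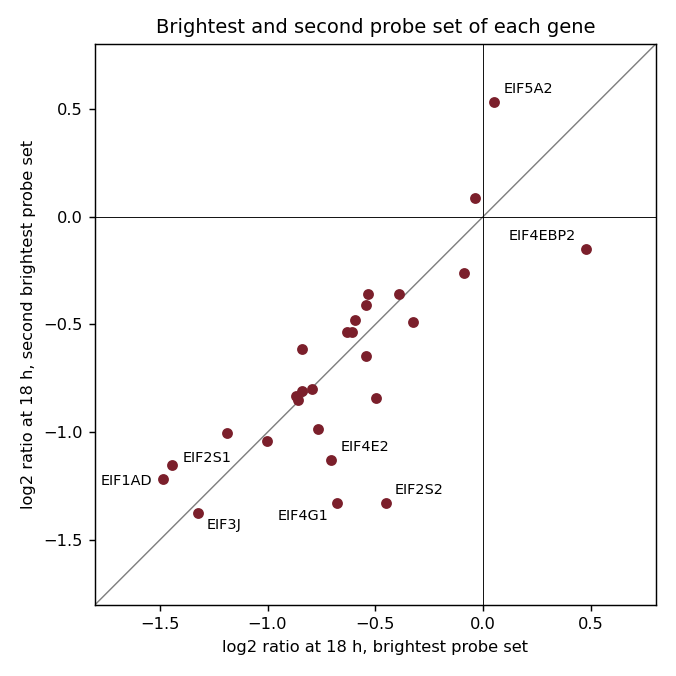
Log2 ratio at 18 h by the second brightest kept probe set (vertical axis) against that by the brightest (horizontal axis), 1 point for each of the 27 initiation factor genes with both, with the line of equal values. The median absolute difference was 0.164, and EIF2S2, EIF4G1, EIF4E2 and EIF4EBP2 lie below the line.

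Set beside genes of like signal, the members had a lower median log2 ratio at 18 h in each of 5 ranges of mean signal, while the share below −1 was higher than that of all genes in 2 ranges and lower in 3. Between 128 and 512 the median was −0.99 over 11 members and −0.51 over all genes, and 4 of the 11 lay below −1, as did 17.9% of all. Between 512 and 1024 it was −0.69 over 8 members and −0.57 over all genes, and 1 of the 8 lay below −1, as did 18.8% of all. Between 1024 and 2048 it was −0.72 over 10 members and −0.62 over all genes, and 2 of the 10 lay below −1, as did 21.0% of all. The share below −1 was thus above that of all genes in the first of these ranges and below it in the next 2. Between 2048 and 4096 the median was −0.71 over 6 members and −0.57 over all genes, and 2 of the 6 lay below −1, as did 11.2% of all. Above 4096 it was −0.50 over 9 members and −0.41 over all genes, and 0 of the 9 lay below −1, as did 4.26% of all. EIF3C and EIF4E3 had a mean signal below 128 and were in none of these ranges. The difference between the medians was widest between 128 and 512, where 4 of the 5 eIF2B genes lie.

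Other steps of translation did not share one course. The 6 factors of termination and ribosome recycling had a median of −1.08 at 18 h, a shift of −0.61, and 5 of them lay below −1. These were GSPT1 (eRF3, with signals of 3669, 2956, 2035 and 1414 and a ratio of −1.38), the release factor ETF1 (−1.08), the recycling ATPase ABCE1 (−1.16), the rescue factor PELO (−1.08) and GSPT2 (−1.01), while HBS1L, the partner of PELO, had −0.32. The 6 measured elongation factors of 9 listed had a median of −0.44, a shift of 0.03, and none below −1. Of 19 listed partners of initiation outside the EIF1 to EIF5 names 16 passed the filter, with a median of −0.57 and a shift of −0.10, and 3 of the 16 lay below −1, near the 15.8% of all genes. These were LARP4, which binds poly(A) (−1.38), EIF6, which keeps the ribosomal subunits apart (−1.19), and ABCF1, which binds eIF2 (−1.07).

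**Figure D5:**
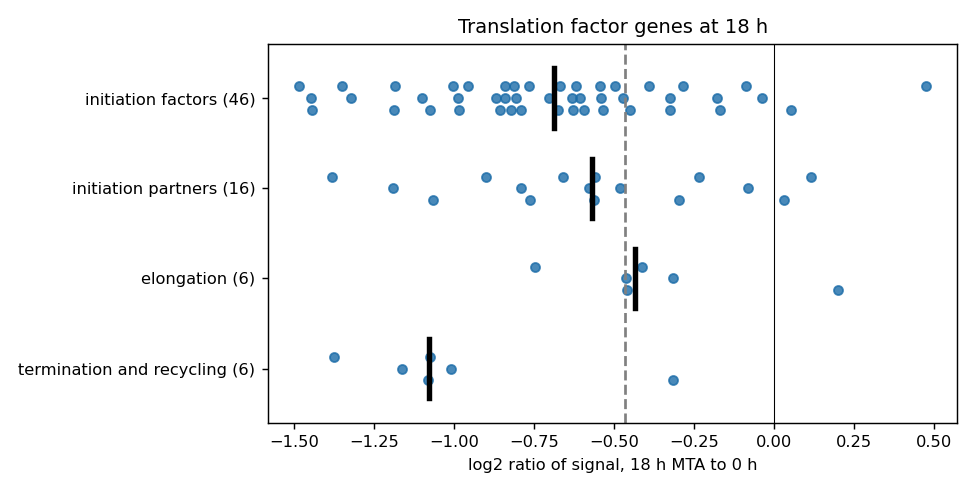
Log2 ratio of signal at 18 h of MTA to 0 h (horizontal axis) for each gene of 4 groups of translation factors, 1 point per gene, with a bar at the median of the group and all genes' median (−0.47) drawn as a dashed line. The initiation factors spread between −1.48 and 0.47 around −0.69, the elongation factors lie around −0.44, and all but 1 of the termination and recycling factors lie below −1.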

How the data were processed

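Total RNA of RCM‐1 cells was hybridised to 4 Affymetrix U133 Plus 2.0 arrays, 1 per time. The intensities that the authors deposited are linear MAS5 signals, made with Affymetrix Expression Console per the submitters' processing notes, whose version and scaling target were not given in the sources used here. After removal of 62 control probe sets, the probe sets were ranked by mean log2 signal, and from the top as many were kept as the study counts as detected (lowest mean signal 34.0). Log2 ratios to 0 h were taken with the deposited scaling and no pseudocount. Gene symbols came from GEO's platform annotation, updated by RefSeq (GRCh38.p14), and 41091 probe sets had 1 symbol. A gene took its probe set with the highest mean log2 signal.

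Members, complexes and lists were chosen with earlier results of these data known. Every member was named, with all 4 signals for those beyond 1 at any time, the lowest and highest of each complex and listed paralogues; other translation factors were named beyond 1 at 18 h, and HBS1L and EIF3J‐DT were chosen after their values were seen. The alternatives were no filter, a stricter filter (10000 probe sets), 5 scalings of the arrays, a pseudocount of 2.91 and the mean over probe sets; the second brightest probe set was added after the data had been seen. The calculation was run on simulated data, with genes lowered by more than any member at 18 h and no shift of a whole array. That run does not bear on calls near −1 or on the scaling. Python 3.11.15, NumPy 2.4.6, pandas 2.3.3 and matplotlib 3.10.9 were used.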

Additional observations from a re-analysis of the deposited data

How the results depend on the processing

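The medians and shifts of the initiation factor genes, the 18 h ratios of the 10 members below −1 and the 6 h ratio of EIF5A2 kept their sign under the alternatives run. The scaling of the arrays set the absolute values. The count of members below −1 at 18 h was 10 as reported, and it was 1 with median centring, 2 with quantile normalization, 0 with division by the trimmed mean and 5 with scaling to the poly‐A controls. In the same 4 settings 2.17%, 4.35%, 0% and 10.9% of members lay below −1, beside 3.74%, 3.85%, 3.08% and 7.47% of all genes, so that the share of members was below that of all genes with median centring and the trimmed mean and above it as reported (21.7% and 15.8%). In these settings the members' median at 18 h, −0.69 as reported, was −0.24, −0.14, −0.17 and −0.44. At 12 h the median, −0.52 as reported, was −0.24 with median centring, −0.15 with quantile normalization, −0.20 with the trimmed mean and −0.26 with scaling to the hybridization controls. Above 0 at 18 h were 10, 14 and 13 members with median centring, quantile normalization and the trimmed mean, against 2 as reported. The median of all genes at 18 h was −0.02, 0.01 and 0.05 in these settings, against −0.47 as reported. The other 63 comparisons of the medians, shifts and counts moved by less than 0.246, the median difference between probe sets, or stayed within 1.5 times the count. Among these comparisons are shifts that a scaling of a whole array cannot move. Scaling to the hybridization controls at 18 h is also among them, with 9 members below −1 (19.6%, beside 13.8% of all genes) and a median of −0.64. Of the ratios of the single members, 42 moved by more than 0.246 and 61 did not.

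The shift from all genes was −0.86 to −0.59 for eIF2B and −0.31 to −0.07 for eIF3. It was −0.31 to −0.08 for eIF4F and −0.35 to −0.12 for all members. Median centring, the trimmed mean and both control scalings apply a single factor to each array. By arithmetic they cannot move these shifts or change which genes lie below the median of all genes. The ranges come from the filters, quantile normalization, the pseudocount and the choice of probe sets. In every setting all measured eIF2B genes lay below the median of all genes at 18 h, 5 of 5 except 4 of 4 with the stricter filter and 1 of 1 with the second brightest probe set, an alternative chosen after the data had been seen. EIF5A2 at 6 h ranged between 0.81 and 1.27, and was no longer above 1 with median centring (0.89), quantile normalization (0.86), the trimmed mean (0.93), the poly‐A (0.81) or hybridization controls (0.99) or the pseudocount (0.995). No paired analysis was possible because each time had 1 array. Signal over background limits EIF3C, whose 18 h signal (34.2) was close to the lowest mean signal kept (34.0).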
